A study of Mus musculus with 24 samples.

Results

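The SOCS family consists in the mouse of Cish and Socs1 to Socs7, 8 genes taken as a family by name, out of 18120 gene symbols in the deposited table. They are measured by 10 of its 25697 probes, and all 10 were detected on at least 1 array, as were probes of 10545 symbols in all. CD4+ T cells came from WT and BAF180 cKO mice (KO below) aged 4 to 6 weeks, with 3 arrays for each of 4 states and 2 genotypes, 24 Illumina MouseRef-8 v2 arrays in all. BAF180, encoded by Pbrm1, is a subunit of the PBAF chromatin remodeling complex, and in the KO an exon of Pbrm1 is flanked by loxP sites and removed by Cre under control of the CD4 promoter, thus late in the development of thymocytes and in CD8 as well as CD4 T cells. Resting Naive cells were CD4+CD62L+ cells of spleen and lymph nodes, purified to 95%. Stimulated Naive cells had spent 24 h on plates coated with anti-CD3 (1 ug/ml) and anti-CD28 (2 ug/ml). Resting Th2 cells were grown from Naive cells on the same antibodies with IL-4 (10 ng/ml) and anti-IFN-gamma (10 ug/ml), and received IL-2 (100 U/ml) after 24 h and during expansion. Stimulated Th2 cells were the same cultures after 1.5 h in PMA (50 ng/ml) and ionomycin (500 ng/ml). The labels give the strain as Balb/c and the methods of the study describe a mixed background, and whether WT mice carried Cre is not given in the sources used here.

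SOCS proteins are inhibitors of cytokine signalling. A cytokine receptor activates JAK kinases, which phosphorylate STAT transcription factors, and STATs in turn induce Cish and the first members of the SOCS family, whose products bind receptor or kinase through an SH2 domain and dampen the signal. Their C-terminal SOCS box recruits elongins and a cullin, so that the bound protein can be marked with ubiquitin. In T cells IL-2 is known to induce Cish and Socs2 through STAT5, IL-6 is known to induce Socs3 through STAT3, and Socs1 restrains the signals of interferon-gamma and IL-4. Socs4 to Socs7 are less tied to cytokines and are known mostly from signalling by growth factor receptors.

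The DNA that STAT dimers recognise is a palindrome of TTC and GAA with a spacer, and sequences near the starts of Cish and Socs3 are shown because these were the members whose windows held it. RefSeq windows of 250 bases before to 50 bases after the annotated start (GRCm38.p6) were at hand for 4 of the 8 genes, Cish, Socs1, Socs3 and Socs4. The palindrome was searched with a spacer of 3 bases, TTCNNNGAA, which reads the same on both strands, and with a spacer of 4. The Cish sequence (plus strand, chr9:107296409-107296678) ends 20 bases after the start. For Socs3 the start of the window lies 970 bases inside the gene as RefSeq draws it, so only 29 bases around the match are shown (minus strand, chr11:117969502-117969530). Capitals mark matches to TTCNNNGAA.
Cish: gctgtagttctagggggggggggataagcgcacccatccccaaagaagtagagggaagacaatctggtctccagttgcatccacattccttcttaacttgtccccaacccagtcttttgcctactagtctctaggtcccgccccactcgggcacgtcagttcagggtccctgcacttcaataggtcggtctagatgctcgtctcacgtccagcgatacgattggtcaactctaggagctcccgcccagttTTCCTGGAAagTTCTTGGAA
Socs3: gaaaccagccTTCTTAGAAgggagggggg
Cish had 2 matches, at bases 1 to 9 and 12 to 20 of the annotated transcript, and Socs3 had 1, which ended 146 bases before the start of its window's transcript. Of all 32851 windows 8.3% held TTCNNNGAA and 0.457% held it at 2 or more places, and 6.95% held the form with the longer spacer, which none of the 4 genes had. The windows of Socs1 and Socs4 held neither, which says only that these letters are not there.

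Before the results, the libraries were checked. Between 8047 and 10689 probes were detected per array, at a median intensity of 40.6 to 48.9, and replicate arrays correlated at 0.949 to 0.989 across probes. For Pbrm1 itself the KO minus WT difference was -1.86 on the log2 scale in resting Th2 (adjusted p = 0.00101), -1.42 in stimulated Th2 (0.0141) and -1.63 in stimulated Naive cells (0.00746). In resting Naive cells it was -1.01, with an adjusted p of 0.121 in limma, which also met the genotype criteria given below. All 8 T cell genes checked were detected on all 24 arrays. Stimulated Th2 arrays carried Th2 cytokine mRNA (Il4, 14.02 ± 0.06 log2 in WT, SD, n = 3), while Il1rl1 and Maf, 2 of the 8 Th2 markers, were not detected on resting Th2 WT arrays. On stimulated Th2 WT arrays 5 of the 8 markers were detected on every array and 1, Ccr4, on none. Il4 was not higher in resting Th2 (9.43) than in stimulated Naive WT cells (9.64). Resting Naive arrays also carried myeloid RNA: all 9 kept of 10 myeloid markers were detected in WT, with a summed normalised intensity of 2979 to 9703, against 73.7 to 136 in stimulated Naive WT, 34.2 to 94.1 in resting Th2 WT and 39.0 to 52.7 in stimulated Th2 WT cells. B cell RNA was also highest in resting Naive WT cells, with a summed intensity over 7 kept markers of 1242 to 1894. It was 130 to 242 in stimulated Naive, 350 to 619 in resting Th2 and 223 to 442 in stimulated Th2 WT cells. Of these markers, Ms4a1 was detected on no WT array and Cd22 on no Th2 WT array. Foxp3, which marks regulatory T cells, was likewise higher in resting Naive WT cells, at 8.83 ± 0.34 log2. It was 7.47 ± 0.47 in stimulated Naive and 5.89 ± 0.22 in resting Th2 WT cells. Resting Naive arrays also carried RNA of activation markers. Of 8 kept, 5 were higher and 3 lower in stimulated than in resting Naive WT cells. Their summed normalised intensity was 7728 to 11591 in resting and 5406 to 7328 in stimulated Naive WT cells. Cd69 read 11.87 and 10.44 log2 in these groups, and Il2ra 5.34 and 8.38. One array, resting Th2 WT replicate C, was the lowest of its group for Cish, Socs1, Socs2 and Socs3. Resting Th2 KO replicate C was also the lowest of its group for these genes. For Cish it read 11.13 against 11.83 and 11.84, where the WT array read 9.73 against 11.67 and 12.12. The mean of the WT array over 10 kept interferon response genes was 4.86 log2. It was 6.30 and 6.37 on the other resting Th2 WT arrays and 4.83 to 5.29 on the KO arrays.

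The levels of the family differed most between cell states. On the normalised log2 scale used throughout (background corrected and quantile normalised), the 8 group means of Socs2 spanned 3.84, those of Socs3 2.28, those of Cish 2.09 and those of Socs1 1.09, and those of Socs4, Socs5, Socs6 and Socs7 between 0.39 and 0.81. Levels of different genes come from different probes and were not compared with each other. Cish, Socs2, Socs3, Socs4 and the first probe of Socs6 were detected on all 24 arrays, Socs5 on 23 and Socs1 on 10. The probes of Socs7, which overlap, were detected on 5 and 4 arrays, and a second probe of Socs6 on 1.

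**Figure D1:**
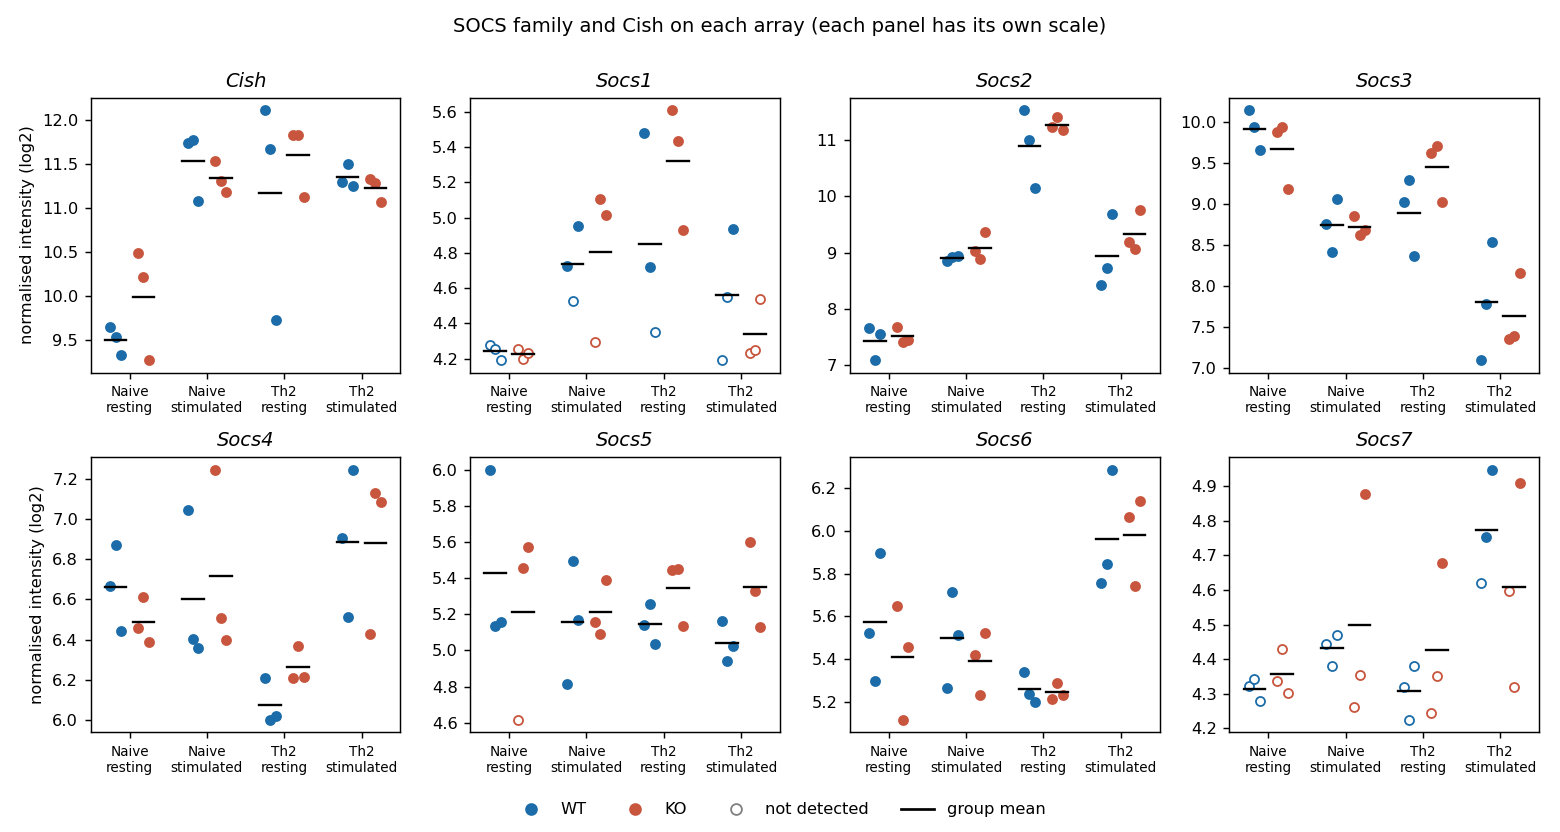
Normalised intensity (log2) of each gene on all 24 arrays, by state (x axis) and genotype (WT blue, KO red); bars are group means of 3 arrays and open points were not detected above background. Socs2 is highest in resting Th2 and lowest in resting Naive cells, while resting Th2 WT has 1 low Cish array at 9.73.

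Stimulation of Th2 cells lowered Socs2 and Socs3 and raised Socs4, Socs6 and Socs7 in WT cells. Thus 5 of the 8 genes passed the test (limma, Benjamini-Hochberg adjusted p below 0.05), against 27.3% of all 14246 probes tested. The median difference of the 8 genes was 0.039 and that of all probes -0.0018. With arrays scaled to a common median in place of quantile normalisation, all 5 kept their direction but 0 were called (Socs2, adjusted p = 0.0729), and 12.9% of all probes were. In bulk RNA a change in the share of cells that express a gene cannot be told apart from a change of RNA per cell.

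Socs2, an inhibitor of growth hormone and cytokine receptors, read 11.53, 11.00 and 10.15 log2 on the resting WT arrays A, B and C and 8.43, 8.73 and 9.68 after stimulation. The groups did not overlap, although replicate C was the lowest resting and the highest stimulated array. Socs2 was 3.85-fold lower after stimulation (log2 difference -1.95, SE 0.30, adjusted p = 3.6e-05). In KO cells it read 11.23, 11.42 and 11.17 at rest and 9.19, 9.07 and 9.75 after stimulation, a log2 difference of -1.93 (SE 0.30, adjusted p = 4.7e-05). As deposited, without normalisation, the resting WT intensities of 1053 to 3719 overlapped the stimulated ones of 261 to 1677, because stimulated replicate C exceeded resting replicates B and C.

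Socs3, the feedback inhibitor of IL-6 signals, fell in both genotypes. In WT it read 9.02, 9.29 and 8.37 at rest and 7.09, 7.78 and 8.54 after stimulation, so the groups overlapped through replicate C, the only pair of arrays in which it was not lower. The log2 difference was -1.09 (SE 0.32, adjusted p = 0.0139). This call rested on single arrays: it was -0.89 without resting Th2 WT replicate B (adjusted p = 0.0777), -0.73 without stimulated Th2 WT replicate A (0.116), and -1.35 (0.00604) without resting Th2 WT replicate C. In KO cells Socs3 read 9.62, 9.71 and 9.03 at rest and 7.36, 7.38 and 8.16 after stimulation, without overlap, and fell by 1.82 (SE 0.32, adjusted p = 0.000211).

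Socs1, which blocks JAK kinases directly, was near background. In KO cells it was detected on all 3 resting arrays, at 5.61, 5.43 and 4.93, and on none of the stimulated ones, at 4.23, 4.25 and 4.54. It was thus at least 1.58-fold lower after stimulation, where an undetected level is replaced by the lowest detected signal of the array. The test used the values as read (log2 difference -0.98, adjusted p = 0.00591). In WT cells it was 5.48, 4.72 and 4.35 at rest and 4.19, 4.55 and 4.94 after stimulation, a log2 difference of -0.29 (SE 0.25, adjusted p = 0.478), which became 0.023 without resting Th2 WT replicate A and -0.54 without replicate C. The difference between the genotypes in this response was -0.69 (SE 0.36, 95% interval -1.43 to 0.05) and did not pass.

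Cish, the immediate feedback target of STAT5, did not pass the test on Th2 stimulation. WT arrays read 12.12, 11.67 and 9.73 at rest and 11.30, 11.50 and 11.25 after stimulation. Replicate C was thus the only WT pair in which Cish was higher after stimulation, and the log2 difference of 0.18 (SE 0.41, 95% interval -0.67 to 1.03) became -0.54 without its resting array (adjusted p = 0.211). KO arrays read 11.83, 11.84 and 11.13 at rest and 11.34, 11.29 and 11.07 after stimulation, a log2 difference of -0.37 (95% interval -1.22 to 0.48).

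**Figure D2:**
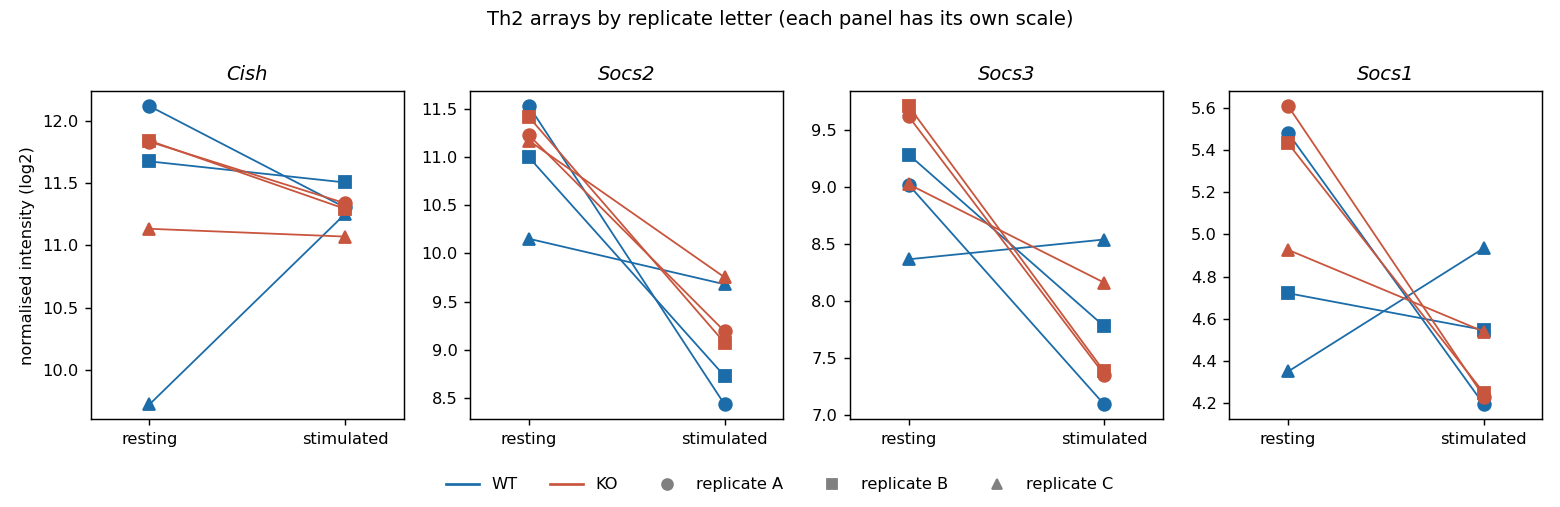
Normalised intensity (log2) of 4 genes in resting and stimulated Th2 cells, with lines joining arrays of the same genotype (WT blue, KO red) and replicate letter (marker shape). The WT arrays of replicate C go up for Cish (9.73 to 11.25), Socs3 (8.37 to 8.54) and Socs1 (4.35 to 4.94), unlike those of the other letters.

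The members that rose with Th2 stimulation in WT were Socs4, Socs6 and Socs7, of which Socs6 also rose in KO cells. Socs6, which binds growth factor receptors, read 5.34, 5.24 and 5.20 in resting WT and 5.76, 5.85 and 6.29 in stimulated WT cells, without overlap, and was 1.63-fold higher (log2 difference 0.71, SE 0.18, adjusted p = 0.00428). In KO cells it rose from 5.21, 5.29 and 5.23 to 6.06, 5.74 and 6.14 (0.74, SE 0.18, adjusted p = 0.00336). With median scaling the KO difference was 0.35 and not called (adjusted p = 0.562), where the median of all probes was -0.19. These values come from its first probe, and its second probe was detected on 1 of 24 arrays. Socs4 read 6.21, 6.00 and 6.02 in resting WT and 6.90, 6.51 and 7.24 in stimulated WT cells, a rise of 0.81 (SE 0.23, adjusted p = 0.012) that lost its call without stimulated Th2 WT replicate C (0.63, adjusted p = 0.0767). In KO cells the Socs4 groups also did not overlap, but the difference of 0.62 (SE 0.23) missed the threshold (adjusted p = 0.058). Socs7 was not detected on any resting Th2 WT array. It was detected on 2 of 3 stimulated ones, which read 4.62 (not detected), 4.75 and 4.95. With the resting levels replaced by the lowest detected signals, it was 1.13-fold higher. The test used the values as read (log2 difference 0.47, adjusted p = 0.0347). Its overlapping second probe did not pass (0.37, adjusted p = 0.0741), and the call was lost when any single array of the comparison other than stimulated Th2 WT replicate A was left out (0.38 to 0.50, adjusted p 0.0528 to 0.143). Socs5 differed by -0.10 in WT and 0.01 in KO cells and passed in no comparison, except between resting Th2 and Naive KO cells with median scaling (0.74, adjusted p = 0.0129), where the median of all probes was 0.55.

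In KO Th2 cells 4 of the 8 genes passed, against 25.8% of all probes, with Socs1, Socs2 and Socs3 lower and Socs6 higher. With median scaling 3 passed, against 19.3% of all probes. No difference between the genotypes in the response of a member passed: it was 0 of 8 in the interaction test in limma, which called 0% of all probes, and 0 members and 1.8% of all probes had an unadjusted p below 0.05. The intervals of these differences reached from -1.75 to 0.88.

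Stimulation of Naive cells raised Cish and Socs2, and Socs3 was lower. In WT cells these 3 of 8 genes passed, against 43.6% of all probes, and in KO cells the same 3 passed, against 41.6%. The share of members called was thus no higher than that of all probes.

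Cish read 9.65, 9.54 and 9.34 on the resting Naive WT arrays and 11.74, 11.78 and 11.09 after stimulation, without overlap. It was 4.08-fold higher (log2 difference 2.03, SE 0.41, adjusted p = 0.000376). KO arrays read 10.49, 10.22 and 9.27 at rest and 11.54, 11.31 and 11.18 after stimulation, also without overlap and 2.54-fold higher (1.35, SE 0.41, adjusted p = 0.0112). Without resting Naive KO replicate C, the lowest of its group, the KO value was 0.98 and not called (adjusted p = 0.0774). Intensities as deposited showed the same separation, at 309 to 458 in resting and 2682 to 3902 in stimulated Naive WT cells.

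Socs2 read 7.66, 7.09 and 7.55 at rest and 8.85, 8.92 and 8.94 after stimulation in WT Naive cells, and was 2.77-fold higher (1.47, SE 0.30, adjusted p = 0.000373). In KO cells it read 7.68, 7.41 and 7.46 and then 9.02, 8.89 and 9.36, 2.98-fold higher (1.57, SE 0.30, adjusted p = 0.000192). In neither genotype did the groups overlap.

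Socs3 read 10.15, 9.94 and 9.66 in resting Naive WT and 8.75, 8.41 and 9.06 in stimulated Naive WT cells, and fell by 1.17 (SE 0.32, adjusted p = 0.00502). In KO cells it read 9.88, 9.94 and 9.18 and then 8.86, 8.62 and 8.68, a fall of 0.95 (SE 0.32, adjusted p = 0.0212) that turned to 0.15 (adjusted p = 0.871) under median scaling. The KO call was also lost without resting replicate A (-0.84, adjusted p = 0.0769) or B (-0.81, 0.0873), or stimulated replicate B (-0.90, 0.0632) or C (-0.93, 0.0553). The decrease depended on the normalisation, and the deposited intensities of Socs3 overlapped: 414 to 570 in resting and 296 to 703 in stimulated Naive WT cells, and 432 to 470 and 446 to 590 in KO. When arrays were scaled to a common median in place of quantile normalisation, the WT difference was -0.05 (adjusted p = 0.961). That scaling moved the median difference over all probes by between -0.19 and 0.52 across the 10 comparisons of groups. Relative to its own median of 0.24, Socs3 in WT was at -0.30. The fall of Socs3 also coincided with the loss of the myeloid markers, 8 of 9 of which fell in both genotypes (medians -2.89 and -3.05), and of 5 of 7 regulatory T cell and 3 of 7 B cell markers in WT (with median scaling, 8 of 9, 1 of 7 and 2 of 7 in WT). Their part in the result was not tested.

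**Figure D3:**
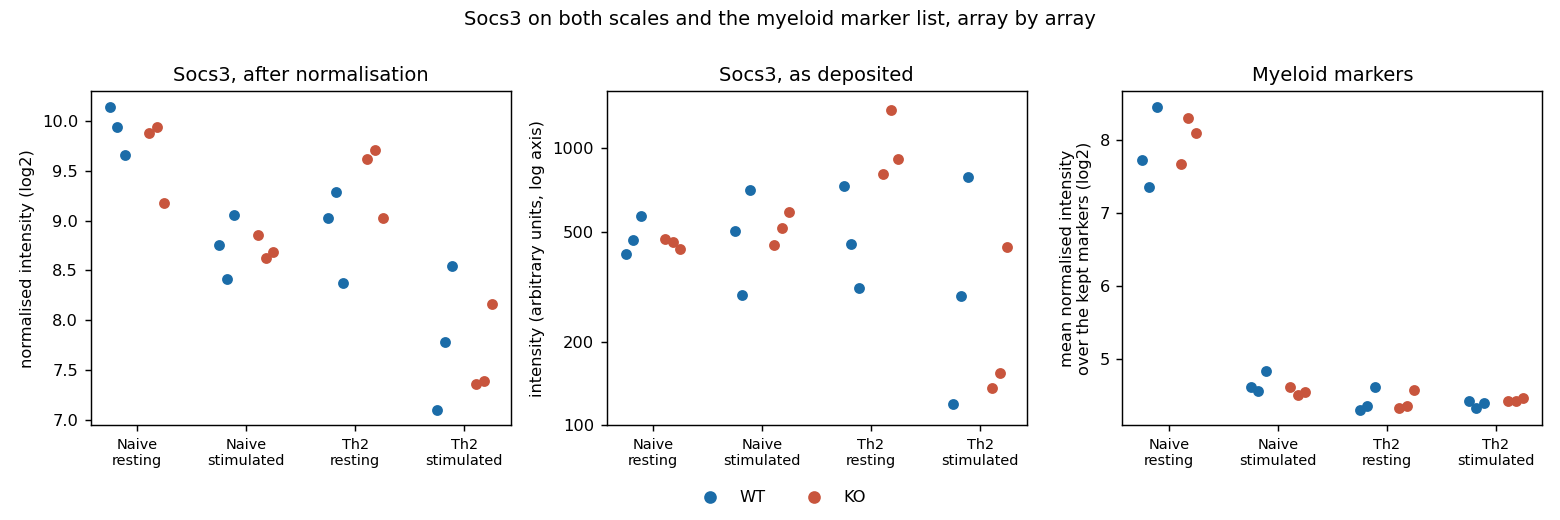
Socs3 on each array after normalisation (log2, left) and as deposited (intensity, log axis, middle), beside the mean normalised level (log2) of 9 myeloid markers (right), by state and genotype (WT blue, KO red). The resting Naive groups have the highest mean Socs3 after normalisation but not as deposited (483 in WT against 1031 in resting Th2 KO), and their myeloid mean is 7.36 to 8.46 against at most 4.83 elsewhere.

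Of the other members, Socs1 was not detected on any resting Naive array and was detected on 2 of 3 stimulated arrays of each genotype. Neither comparison passed (adjusted p = 0.123 in WT and 0.0736 in KO). Socs4, Socs5, Socs6 and Socs7 differed by -0.27 to 0.23 over both genotypes, none of them called. In the interaction test 0 of 8 members passed, 0 members and 2.31% of all probes had an unadjusted p below 0.05, and 0.00702% of all probes (1) was called.

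**Figure D4:**
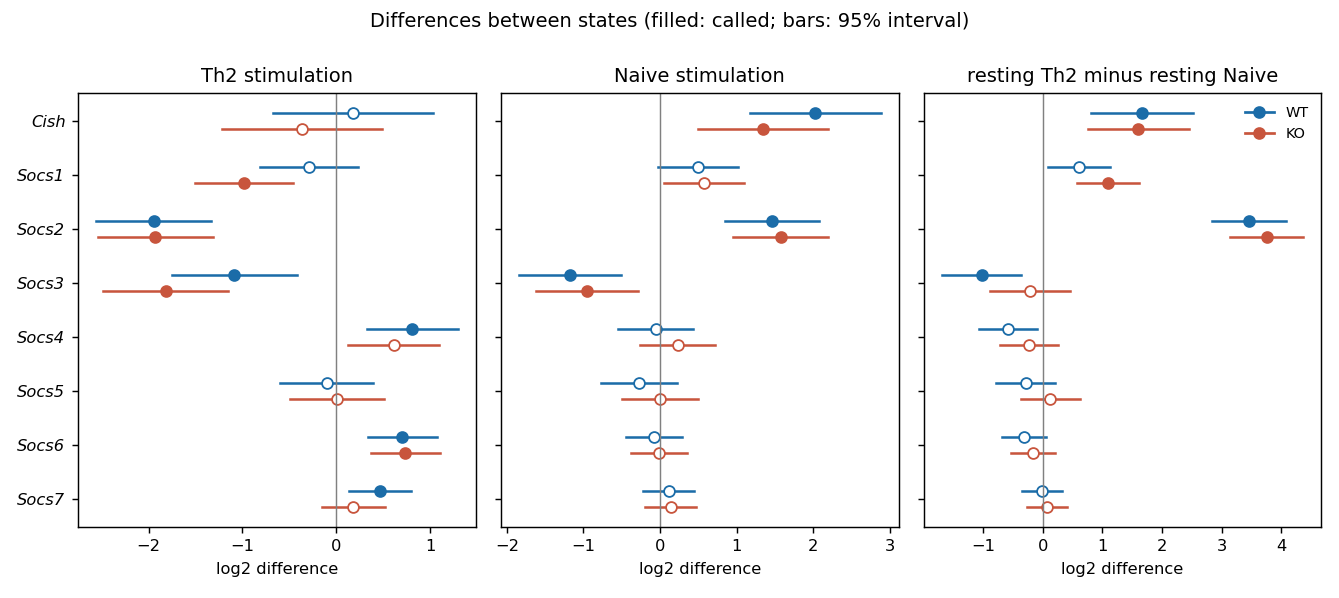
Log2 differences of the 8 genes (y axis) for Th2 stimulation, Naive stimulation, and resting Th2 minus resting Naive cells, WT in blue and KO in red, with 95% intervals from the model; filled points passed the test. Socs2 fell in Th2 (-1.95 in WT) and rose in Naive cells (1.47), and rows without a filled point in any panel are those of Socs5.

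The Naive and Th2 responses were then set against each other in WT cells, with the caution that the stimulus and its time differed (antibodies for 24 h, PMA and ionomycin for 1.5 h). The responses of 3 members differed, against 25% of all probes. That of Socs2 was lower in Th2 than in Naive cells by 3.41 (SE 0.42, adjusted p = 3.6e-06), and that of Cish by 1.85 (SE 0.58, adjusted p = 0.0224), while that of Socs6 was higher by 0.78 (SE 0.25, adjusted p = 0.0252). For Socs2 the response had opposite signs in the 2 cell types. The other 2 calls were thin. Cish lost its call without stimulated Naive WT replicate B (-1.73, adjusted p = 0.0517) or resting Th2 WT replicate A (-1.38, 0.0773) or B (-1.60, 0.0638), and read -2.57 without resting Th2 WT replicate C. Socs6 lost its call without resting Naive WT replicate C (0.62, adjusted p = 0.0676), stimulated Naive WT replicate A (0.66, 0.0708), resting Th2 WT replicate C (0.75, 0.0512) or stimulated Th2 WT replicate C (0.62, 0.0772). Neither was called when the fit was limited to the arrays compared (adjusted p = 0.0617 for Cish and 0.0561 for Socs6). Over all alternatives of processing and of arrays left out, the Socs6 difference ranged from 0.43 to 0.92, with an adjusted p of up to 0.626.

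Resting Th2 cells differed from resting Naive cells most in Socs2. The arrays read 7.66, 7.09 and 7.55 in Naive and 11.53, 11.00 and 10.15 in Th2 WT cells, and Socs2 was 11.0-fold higher in Th2 cells (3.46, SE 0.30, adjusted p = 1.5e-08). In KO cells it was 13.5-fold higher (3.76, SE 0.30, adjusted p = 4.9e-09). Cish was 3.17-fold higher in WT Th2 cells (1.66, SE 0.41, adjusted p = 0.00332) and 3.04-fold higher in KO (1.60, SE 0.41, adjusted p = 0.00439). In WT the Cish groups barely separated, with the highest Naive array at 9.65 and the Th2 array of replicate C at 9.73. Without that array the WT difference of Cish was 2.39 (adjusted p = 3.8e-06), and when only the arrays compared were fitted it was not called (adjusted p = 0.078). Socs1 was not detected on any resting Naive array, and was at least 1.43-fold higher in KO Th2 cells (log2 difference of the values as read 1.09, adjusted p = 0.00202). In WT Th2 cells it was detected on 2 of 3 arrays, at 5.48 and 4.72, and missed the threshold (adjusted p = 0.0681). It was called without resting Th2 WT replicate C (adjusted p = 0.0176). No fold is given for the full comparison, since the mean of all 3 WT Th2 arrays did not exceed the lowest detected signal of the Naive arrays.

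Socs3 was lower in resting Th2 than in resting Naive WT cells by 1.02 (SE 0.32, adjusted p = 0.017), but this call was lost without resting Naive WT replicate A (-0.91, adjusted p = 0.0687), without resting Th2 WT replicate C (-0.76, 0.104) and under median scaling (-0.07, 0.942). In KO cells the difference was -0.21 (95% interval -0.88 to 0.45) and turned to 1.10 (adjusted p = 0.109) under median scaling. Deposited intensities were 414 to 570 in Naive and 314 to 727 in Th2 WT cells, and 432 to 470 and 805 to 1370 in KO. Myeloid markers fell in this comparison for 9 of 9 genes in each genotype (medians -2.88 and -3.16). The regulatory T cell markers fell for 6 of 7 in WT and 5 of 7 in KO, and the B cell markers for 3 of 7 and 4 of 7. The part of these lists in the differences was not tested. In all 3 of 8 members passed in WT, against 34.4% of all probes, and 3 of 8 in KO, against 34.7%.

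Ordered by level, Socs2 thus had 3 tiers whose arrays did not overlap: resting Naive cells (group means 7.43 and 7.52), both stimulated states (8.90 to 9.34), and resting Th2 cells (10.89 and 11.27). Within a tier neighbouring groups overlapped. For Socs3 the means of stimulated Th2 cells (7.63 and 7.81) were below those of all other groups (8.72 to 9.92). Stimulated Th2 WT did not overlap with its neighbour, stimulated Naive KO, but did with stimulated Naive WT and resting Th2 WT. For Cish every pair of neighbours in the order overlapped, from resting Naive WT (9.51) to resting Th2 KO (11.60), as did every pair for Socs1, Socs5, Socs6 and Socs7. For Socs4 neither resting Th2 group (6.08 in WT, 6.27 in KO) overlapped with the next group in the order, by narrow gaps. Resting Th2 KO, at 6.21 to 6.37, did overlap with stimulated Naive WT, whose replicate C read 6.36.

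No member met the criteria of the study for a difference between KO and WT, as they were applied here. They ask for a Z-ratio (the difference in units of the SD of such differences over probes) of more than 1.5 in size, a p under 0.05 with an FDR under 0.3, and a positive mean signal. The Z-ratio was taken from normalised log2 values and not from Z-scores, p and FDR came from limma, and the mean was always positive. The count was 0 of 8 in resting Th2, stimulated Th2, resting Naive and stimulated Naive cells, and of all probes the criteria called 0.0842%, 0.0913%, 0.681% and 0.112%. The study, on its own Z-scores, reports far more genes and names Il10 as the most enhanced in Th2 cells. Here Il10 differed by 1.69 in resting Th2 cells and was not called (limma, adjusted p = 0.988). No member had an unadjusted p below 0.05 in limma in any state, with or without the replicate letter as a block, and none was called with an adjusted p below 0.05. Of all probes 3.43%, 2.79%, 6.83% and 2.25% had such an unadjusted p, so a count of 0 among 8 is not particular to the family. The intervals do not show that the genotypes are alike, since over the 8 genes they reached from -1.04 to 1.34 in log2 units.

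In resting Th2 cells 7 of the 8 members read higher in KO, with a median of 0.29 beside 0.00056 for all probes, and without resting Th2 WT replicate C this was 6 of 8 with a median of 0.15. Socs3 read 9.02, 9.29 and 8.37 in WT and 9.62, 9.71 and 9.03 in KO, a difference of 0.56 (95% interval -0.10 to 1.23). The groups overlapped, since replicate C of KO lay below replicate B of WT. Socs1 differed by 0.47 (-0.05 to 1.00), Cish by 0.43 (-0.42 to 1.28) and Socs2 by 0.38 (-0.24 to 0.99). Without resting Th2 WT replicate C they were 0.30 for Socs3, 0.22 for Socs1, -0.29 for Cish and 0.0071 for Socs2. Replicate C of KO, also the lowest of its group for these genes, was kept in. With median scaling 8 of 8 members were higher, where the median of all probes was 0.23. The arrays of the genotypes did not overlap for Socs4, 1 of 8 members where 10.1% of all probes did not overlap (6.21, 6.00 and 6.02 in WT, and 6.21, 6.37 and 6.22 in KO), with the highest WT and the lowest KO array both at 6.21 and a difference of 0.19 (95% interval -0.30 to 0.68). The interferon response genes, which share STATs with this family, ran the other way in the same cells: 10 of 10 read lower in KO, none of them called, with a median of -0.83 (-0.67 with median scaling). Of the 10, Mx1 (-0.075) and Oas2 (-0.76) were not detected on any KO array. The mean over the list was 4.86 log2 on WT replicate C, within the KO range of 4.83 to 5.29, and up to 6.37 on the other WT arrays. The part of these genes in the members' differences was not tested.

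In stimulated Th2 cells the members' differences ran from -0.22 (Socs1) to 0.39 (Socs2), in resting Naive cells from -0.25 (Socs3) to 0.49 (Cish), and in stimulated Naive cells from -0.19 (Cish) to 0.19 (Socs2). Cish in resting Naive KO cells spread from 9.27 to 10.49, over WT arrays that spread from 9.34 to 9.65.

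**Figure D5:**
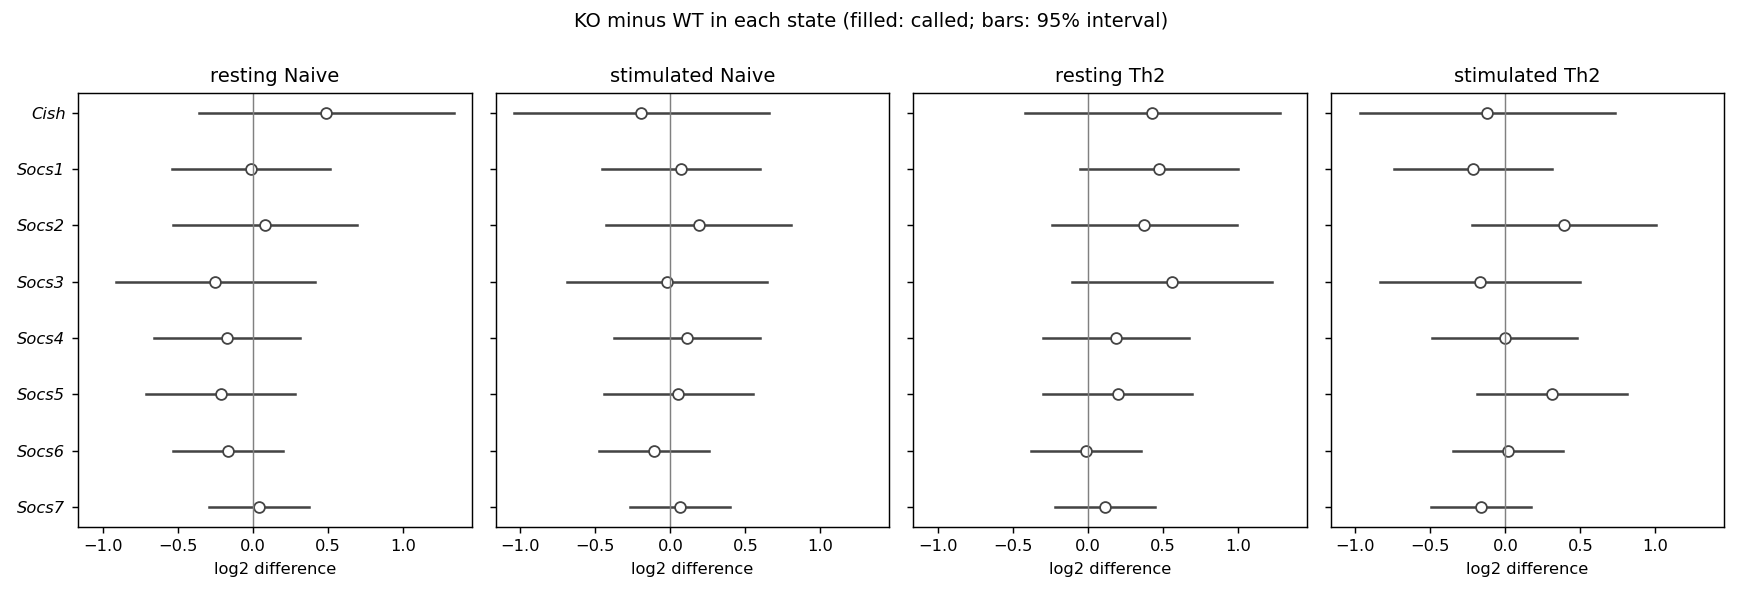
KO minus WT differences (log2, x axis) of the 8 genes in each of the 4 states, with 95% intervals from the model; open points were not called. All 32 intervals contain 0, and in resting Th2 cells 7 of 8 points lie to the right of 0, at up to 0.56 for Socs3.

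Of the rest of the pathway, the cytokine genes moved most on stimulation by their medians. Against 27.3% of all probes called in WT Th2 and 43.6% in WT Naive cells, the shares of the lists are given as counts. Of 13 kept cytokine genes whose receptors use JAKs, 9 rose and 1 fell in WT Th2 cells, at a median of 3.61, and 8 rose and 1 fell in WT Naive cells (median 1.51). Il3 rose by 8.95 and 3.63, Ifng by 6.05 and 2.34, Csf2 by 6.50 in Th2 and Il4 by 2.71 in Naive cells. Lif, which signals through STAT3, was the only gene of the pathway lists that met the genotype criteria in any state. It was higher in resting Th2 KO cells by 1.12 (SE 0.24, adjusted p = 0.218). The interferon response genes were listed apart from the pathway. Of these, Eif2ak2 met the criteria in stimulated Th2 cells, with a KO minus WT difference of -1.39 (SE 0.31, adjusted p = 0.229).

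Of 26 kept receptor genes, 3 rose and 8 fell in WT Th2 cells (median -0.0092), and 5 rose and 11 fell in WT Naive cells (median -0.20). Ifngr1, a chain of the interferon-gamma receptor, changed by -2.79 in Th2 and -3.14 in Naive cells, and Il7r, the receptor of IL-7, by -1.23 and -3.51. Il2ra, the alpha chain of the IL-2 receptor, rose by 3.04 in Naive cells, in which Cish and Socs2 also rose, and Il12rb1 rose by 1.21 in Th2 and 2.20 in Naive cells. Among 10 kept JAK and STAT genes, Stat5a rose by 3.01 and Jak2 by 2.60 in Th2 cells while Stat4 fell by 2.28. In Naive cells Stat5a rose by 1.05, Stat4 changed by -1.29, and Jak3 changed by -0.79, which turned to 0.23 and was not called with median scaling. The whole list gave 2 up and 1 down in Th2 (median -0.22) and 1 up and 2 down in Naive cells (median 0.03), where median scaling gave 4 up and 0 down.

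The other inhibitors of the pathway (phosphatases, PIAS and CBL proteins), of which 4 of 11 were called in each cell type, had differences in both directions. Of the 11 kept, 1 rose and 3 fell in each cell type, at medians of -0.08 in Th2 and -0.17 in Naive cells, but with median scaling 0 rose and 1 fell in Th2, and 3 rose and 0 fell in Naive cells. Pias3, an inhibitor of STAT3, changed by -1.28 in Th2 and -1.22 in Naive cells, and Ptpn6, the phosphatase SHP-1, by -0.92 in Th2 cells. In Naive cells Ptprc, the phosphatase CD45, changed by -0.87 and Pias1 by -1.03, the latter turning to 0.015 with median scaling. Cblb, a ubiquitin ligase that restrains T cell activation, rose by 1.04 in Th2 cells.

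Of 19 STAT target genes, all kept, 11 rose and 3 fell in WT Th2 cells (median 1.14), and 9 rose and 3 fell in WT Naive cells (median 0.62). Tnfsf11, the cytokine RANKL, rose by 4.33 and Tbx21, the Th1 regulator, by 3.13 in Th2 cells, whereas Ccnd3, a cyclin, fell by 3.51. In Naive cells Gbp2 rose by 2.86, Tbx21 by 2.42 and Gfi1 by 2.39. The direction of Socs2 in Th2 cells was therefore not that of most listed targets.

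Of 8 kept partners of the SOCS box in the ubiquitin ligase, 1 rose and 1 fell in Th2 cells (median -0.00083), and 3 rose and 1 fell in Naive cells (median 0.58). Ube2f, which joins NEDD8 to cullin 5, rose by 0.87 in Th2 cells, and Rbx1 and Eloc, elongin C, rose by 1.31 and 0.62 in Naive cells. Ube2d2a, a ubiquitin conjugating enzyme, changed by -0.47 in Th2 and -0.58 in Naive cells, where it turned to 0.59 and was not called with median scaling. Of 19 kept genes of other SOCS box proteins, 3 rose and 4 fell in Th2 (median 0.09), and 1 rose and 6 fell in Naive cells (median -0.19), where median scaling gave 3 up and 0 down. Klhdc1 changed by -1.62 in Th2 and -1.73 in Naive cells, Asb2 by -1.76 and Asb13 by -1.67 in Naive cells, and Wsb2 and Spsb1 rose by 1.18 and 1.06 in Th2 cells. None of the partners and other SOCS box genes met the genotype criteria.

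The genes whose pattern over the 24 arrays was most like that of each widely varying member were found by Pearson correlation among 4763 genes that also spanned at least 1 log2 unit between group means. For Socs2 these were Gtse1 (0.940), Exoc8 (0.935) and Glipr2 (0.934), and for Socs3 they were Taf9b (0.926), Cyld (0.923) and Bcas3 (0.922). For Cish they were Trib3 (0.871), Cr1l (0.870) and Wars (0.853), and for Socs1, near background on most arrays, Fam229b (0.861), Zbtb14 (0.839) and Gkap1 (0.828). These values describe 8 groups of 3 arrays that share their culture conditions, and carry no test.

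Among themselves, Socs2 correlated with Socs1 (0.764) and Cish (0.678) over the 24 arrays, and Socs3 did not go with Socs2 (-0.130) or Cish (-0.390). When the group means were subtracted, so that only the spread between replicate arrays was left, all pairs of these 4 genes were positive, from 0.405 for Socs1 with Cish to 0.701 for Socs2 with Socs3. Arrays of replicate C contributed to this spread: in stimulated Th2 cells replicate C was the highest array of its genotype for Socs1, Socs2 and Socs3 in both WT and KO.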

How the data were processed

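The authors hybridized biotin-labelled cRNA to Illumina MouseRef-8 v2 arrays and deposited, per probe and array, the average bead intensity (not normalized) and a detection p-value against negative controls. The image software was GenomeStudio, given as version 1.6.0 in the submitters' processing notes. Background was inferred from the deposited detection p-values, an offset of 16 added, and values were log2 transformed and quantile normalized (neqc, limma 3.58.1, R 4.3.3). A probe entered the tests if any array detected it (p not above 0.02), which left 14246, and a gene was read from its brightest probe. A linear model with 8 group means (16 residual degrees of freedom) was fitted with moderated variances, with Benjamini-Hochberg adjustment over kept probes and 95% intervals. State comparisons and interactions were called at an adjusted p below 0.05, and genotype comparisons by the 4 criteria of the study, with limma's p and FDR. The fit was tested on simulated data. The number of arrays limits the precision, and p-values measure the spread between 3 arrays per group.

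The study states 3 pairs of mice. Deviations of WT and KO arrays of the same letter correlated at 0.301 (A), 0.136 (B) and 0.516 (C) over the 4 states. Within states the correlations ran from -0.0026 to 0.662. Neither the labels nor the study ties the letters to mice, and these values cannot tell pairs of mice from another factor shared by a letter. A pair of arrays above therefore means only arrays of the same letter. With genotype and letter together as a random block, the consensus correlation was 0.041. The members are defined by gene name, but this family, the gene lists and the markers were picked with earlier results of these data known. Named pathway genes are, per list, the 3 called genes with the largest difference on WT stimulation in each cell type, and any that met the genotype criteria. Promoter sequences are from RefSeq (GRCm38.p6). Alternatives were another background correction, scaling, filter, probe rule, call rule, block or set of arrays, and each array left out. No slide or scan was given, so neither could be a block.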

Additional observations from a re-analysis of the deposited data

Results flagged for a closer look

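The response to stimulation differed between the cell types for 3 members in WT, by the test of the difference itself. As Th2 minus Naive, in log2 units, it was -3.41 for Socs2, which fell in Th2 and rose in Naive cells, -1.85 for Cish, which rose in Naive cells and was not called in Th2 cells, and 0.78 for Socs6, which rose in Th2 cells and was not called in Naive cells. Stimulus and time differed between the cell types, so that they cannot be told apart from the cell type. Groups of 3 arrays are too small for a test of single outlying arrays.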

How the results depend on the processing

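Of 24 called differences of members, 23 kept their direction in every alternative, and the calls held in 374 of 425 recalculations. The number of members called on WT Th2 stimulation, 5, became 0 with median scaling (12.9% of all probes called) and 1 with the genotype criteria as the call rule, which gave 2 in KO Th2 and 1 in KO Naive cells. Median scaling called 13, 5, 0 and 1 of all probes between genotypes in resting Th2, stimulated Th2, resting Naive and stimulated Naive cells in place of 12, 13, 97 and 16, and leaving out the background correction called 5 in the last. With arrays left out singly the number of members called on WT Th2 stimulation lay between 3 and 4. For the difference between the responses of Th2 and Naive cells, 3 members became 1 when only the arrays compared were fitted. With median scaling 17 of 80 differences of members between groups changed sign, 1 of them a called one, that of Socs3 on KO Naive stimulation (0.15). Others were Socs3 in KO (1.10) and Socs4 in WT (0.21) between resting Th2 and Naive cells, and Socs4 (0.76), Socs5 (0.19) and Socs6 (0.39) on WT Naive stimulation. Sign also changed, with single arrays left out, for Socs1 on WT Th2 stimulation (range -0.54 to 0.023), Cish on WT Th2 stimulation (-0.54 to 0.65) and Cish between genotypes in resting Th2 cells (-0.29 to 0.90), where resting Th2 WT replicate A turned Socs1 and replicate C of that group turned Cish. The cause was not tested. With the replicate letter as a block the counts stayed at 5, 4, 3 and 3 for stimulation (WT Th2, KO Th2, WT Naive, KO Naive), 3 and 3 between cell types and 0 for genotype, and the block changed no call of a member. Normalization after the detection filter, chosen after seeing the data, gave the same counts. Signal near background limits Socs1 and Socs7.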
